A study of Mus musculus with 9 samples.

Results

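The genes described here are the matrix metalloproteinases (MMPs), the ADAM and ADAMTS families, the ADAMTS-like proteins and the tissue inhibitors of metalloproteinases (TIMPs). They were picked by gene symbol: every gene of the array named Mmp, Adam, Adamts or Adamtsl with a number, or Timp1 to Timp4. The choice of these families was made with earlier results of these data known. The array carried 76 of them among 27597 gene names, on 131 probes. Of these 76 genes, 71 could be measured, because at least 1 of their probes exceeded background clearly on 3 or more of the 9 arrays. Adam12, Adam22, Adam7, Mmp12 and Mmp20 did not reach that level.

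MMPs are zinc-dependent enzymes that cut collagens and other matrix proteins. Some are secreted and some stay bound to the cell membrane, most are made as inactive precursors, and the TIMPs block their active site. Many ADAMs are membrane proteases that release the outer part of receptors and growth factors. ADAMTS enzymes are secreted proteases that trim procollagens or cut large proteoglycans such as versican. The ADAMTS-like proteins share the accessory domains of ADAMTS enzymes and lack the protease domain. In skeletal muscle these enzymes are known for remodelling the matrix around fibres and stem cells during growth and repair.

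RNA levels were measured on 9 single-colour arrays, 3 in each of 3 groups, all of cells from the tibialis anterior muscle at 3 months of age. The iPax3 and iPax7 groups were myogenic progenitors derived from pluripotent stem cells that had been injected in vivo and were re-isolated from NSG/NSGmdx4cv mice as mononucleated cells. The comparison group held adult satellite cells, which are the muscle's own stem cells, from Pax7-ZsGreen mice. For each line, cells came from 3 mice in 3 independent experiments, 1500 cells were sorted into lysis buffer, and their RNA was amplified with SuperAmp before 250 ng of cDNA was labelled with Cy3. The labels do not give the sort gate, so the host cells that a re-isolated sample may hold are not known. The satellite cells differed from the re-isolated cells also in mouse strain, in slide and in scan day, which cannot be told apart from the cell type. Between 56.6% and 79.7% of probes were well above background on an array. In bulk samples such as these, fewer cells of a type and less RNA per cell cannot be told apart.

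Levels are given as log2 signal relative to the 75th percentile of the same array, in the order of replicates 1, 2 and 3. A difference is a difference of such log2 levels with its standard error (SE), so 1 unit is a doubling. Levels of different genes were not set against each other, because each probe has its own brightness. Only for lists of cell type markers were the signals of several genes added, and the brightest probes weigh most in such sums. An adjusted p is limma's, after Benjamini-Hochberg adjustment over all 22705 genes tested, and a gene rose or fell where it was under 0.05. The iPax3 and iPax7 comparisons share the same 3 satellite arrays, so they do not support each other.

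Few of the genes differed between re-isolated and satellite cells, and those that passed the test all rose. In iPax3 cells 5 of 71 rose (Adamtsl3, Adamts12, Mmp14, Mmp19 and Mmp16), against 0.361% of all genes tested that rose and 0.432% that changed in either direction. In iPax7 cells 4 of 71 rose (Adamtsl3, Adamts12, Mmp14 and Mmp19), against 0.436% of all genes that rose and 0.533% in either direction. Over all 6 re-isolated arrays 5 of 71 rose, the same 4 and Adamts2, against 0.802% of all genes that rose and 1.04% in either direction. None of the 71 fell in any of these comparisons, where 0.0705%, 0.0969% and 0.238% of all genes fell. Counted by groups that did not overlap, 16 genes stood apart in iPax3 cells (22.5%, against 19% of all genes), 20 in iPax7 cells (28.2%, against 16.5%) and 11 in all re-isolated cells (15.5%, against 8.5%), in both directions. The other members were spread to both sides of 0. The median difference over the 71 was 0.12 in iPax3 cells and -0.06 in iPax7 cells, beside -0.19 and -0.15 over all genes tested.

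**Figure D1:**
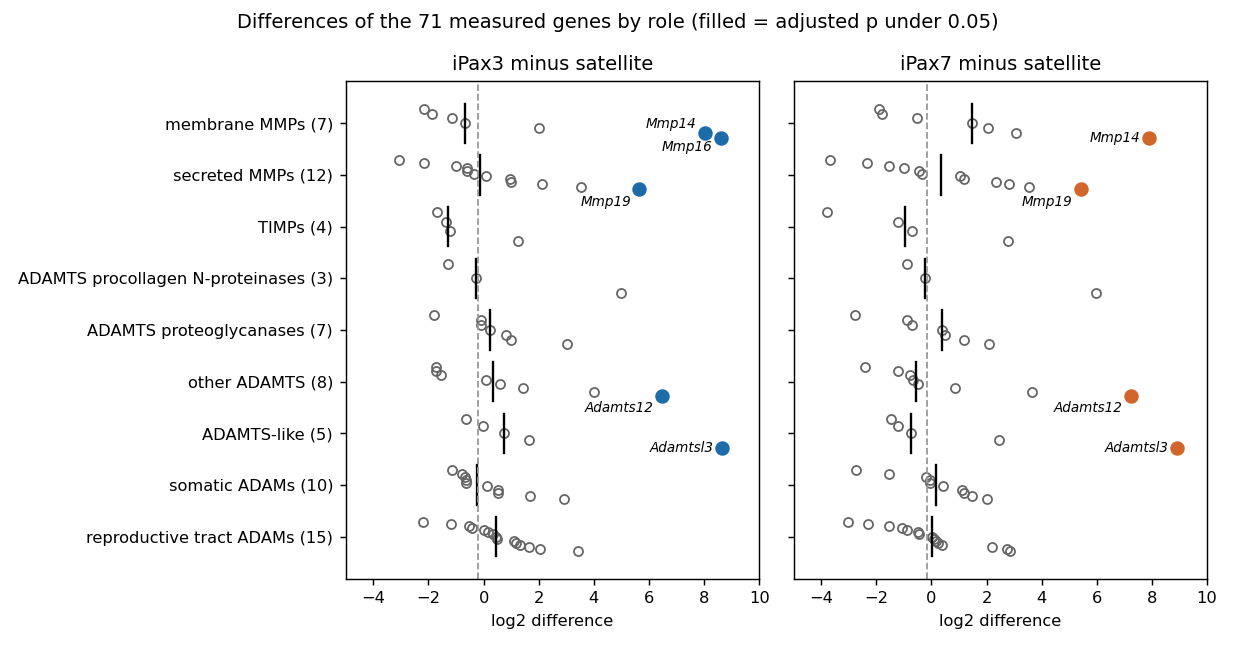
Log2 difference of each of the 71 measured genes from satellite cells, by role, for iPax3 (left) and iPax7 (right); the number of genes stands in brackets, filled points have an adjusted p under 0.05, black bars are the medians of a role and the dashed line is the median of all genes tested. The open points lie on both sides of 0, and the 5 and 4 filled points lie to the right, between 5.43 and 8.90.

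Of the 7 measured membrane-type MMPs, Mmp14 rose in both lines and Mmp16 in iPax3 cells. Mmp14 encodes MT1-MMP, a collagenase at the cell surface that also activates the precursor of MMP2 with TIMP2 as a bridge. It was read by 2 probes, 1.2 kb apart. The sequence of the one that does not stand for the gene is shown because it gave close to the same difference from a separate stretch of the gene (60 bases, mm8, plus strand, in lower case throughout since no single base matters more than another).
Mmp14 probe, chr14:53394143-53394202: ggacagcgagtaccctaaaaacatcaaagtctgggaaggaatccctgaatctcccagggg
On the probe that stands for the gene, the levels of Mmp14 were 5.80, 5.06 and 6.07 on the iPax3 arrays, 6.27, 5.20 and 5.07 on the iPax7 arrays, and 0.31, -4.16 and -3.28 on the satellite arrays. Every re-isolated array was higher than every satellite array, and satellite replicate 1 stood above the other satellite arrays. Mmp14 was 8.02 ± 1.12 (SE) higher on the iPax3 arrays (adjusted p 0.0228) and 7.89 ± 1.12 higher on the iPax7 arrays (adjusted p 0.021). Over all re-isolated arrays it was 7.96 ± 0.97 higher (adjusted p 0.00817), about 248-fold. Only 2 of 3 satellite arrays were well above background, so the size of this fold is uncertain. The printed probe gave 7.99 ± 1.41 for the same comparison (adjusted p 0.0422 among all probes).

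The Mmp14 call over all re-isolated arrays held when any single array was left out, with adjusted p up to 0.0477. In the separate lines it was lost in 5 of 9 such fits each, among them those without satellite replicate 2 (7.13, adjusted p 0.0739 in iPax3 cells) and without satellite replicate 3 (7.57, adjusted p 0.0928). With slide as a random block, adjusted p was 0.106 for iPax3 and 0.0536 for iPax7 cells, and 0.042 for both together. Both separate lines also lost the call with scan day as a random block and when only the groups compared were fitted. Under the other ways of processing and fitting, the difference over all re-isolated arrays lay between 6.38 and 7.97.

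Mmp16 encodes MT3-MMP, another membrane-bound MMP, and the array read it with 2 probes that gave different pictures. The probe that stands for the gene gave levels of 1.27, 0.15 and 2.28 on the iPax3 arrays, -6.38, -1.45 and -5.12 on the iPax7 arrays, and -9.0, -6.32 and -6.82 on the satellite arrays. It was well above background on 3 iPax3 arrays, 2 iPax7 arrays and no satellite array, so it could be measured only through the re-isolated groups. The level in satellite cells is therefore a bound.
Mmp16 was at least 85.2-fold higher in iPax3 than in satellite cells (measured means 1.23 and -7.38, adjusted p 0.0343). In iPax7 cells it was at least 1.82-fold higher, which did not pass (adjusted p 0.392). The iPax3 call held in 3 of 9 fits that left out an array, with slide as a random block its adjusted p was 0.146, and with normexp background correction it did not pass.

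The other probe of Mmp16 starts 23.8 kb before the start of the first and spans 17019 bases of genome across a splice site. It is shown because it does not repeat the gap between the lines (60 bases, mm8, plus strand).
Mmp16 probe, chr4:18020570-18037588: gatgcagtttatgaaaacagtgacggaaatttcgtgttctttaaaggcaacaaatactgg
Its levels were -3.75, -0.52 and -4.47 on the iPax3 arrays, -3.37, -0.62 and -4.96 on the iPax7 arrays, and -5.29, -6.27 and -6.81 on the satellite arrays. On this probe every re-isolated array was above every satellite array. On the first probe iPax7 replicate 1 (-6.38) was below satellite replicate 2 (-6.32). The lines overlapped on the second probe, with differences from satellite cells of 3.21 ± 1.35 and 3.14 ± 1.35. Neither passed the test (adjusted p 0.394 and 0.419).

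The other 5 membrane-type MMPs did not pass in either line. Mmp17 and Mmp24, which encode MT4-MMP and MT5-MMP, differed by -2.03 ± 0.69 and -1.48 ± 0.65 over all re-isolated arrays (adjusted p 0.223 and 0.324). Mmp24 levels were -0.90, 0.63 and 0.22 on the iPax3 arrays, -1.44, -0.24 and -0.34 on the iPax7 arrays, and 0.74, 1.97 and 0.68 on the satellite arrays, without overlap. The second probes of Mmp17 and Mmp24 gave -0.90 ± 0.58 and -0.52 ± 0.83. Mmp23 differed by 1.75 and Mmp25 by -1.20, and Mmp15 was well above background on 1 array of each group.

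Among the 12 measured secreted MMPs, Mmp19 rose in both lines and no other member passed. Mmp19 encodes a secreted MMP that cuts basement membrane proteins. Its only probe gave -0.39, 0.73 and 1.19 on the iPax3 arrays, 1.08, -0.62 and 0.38 on the iPax7 arrays, and -4.43, -6.40 and -4.62 on the satellite arrays, where 2 of 3 arrays were well above background. The groups lay more than 3 log2 units apart. The difference was 5.65 ± 0.84 for iPax3 (adjusted p 0.03), 5.43 ± 0.84 for iPax7 (adjusted p 0.0296) and 5.54 ± 0.73 for both (adjusted p 0.0111). The last of these held in 8 of 9 fits that left out an array, failing without satellite replicate 2 (4.92, adjusted p 0.0539). The separate lines held in 3 and 2 of 9, and with slide as a random block adjusted p was 0.19, 0.0967 and 0.0786 for iPax3, iPax7 and both. With normexp background correction the difference over both was 2.71 and did not pass.

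Mmp2 encodes gelatinase A, the enzyme that MT1-MMP activates. Its levels were 4.07, 3.33 and 4.61 on the iPax3 arrays, 4.52, 3.52 and 3.97 on the iPax7 arrays, and 2.97, -3.70 and 2.09 on the satellite arrays. The groups did not overlap, but satellite replicate 2 lay far below the other satellite arrays. The difference of 3.55 ± 1.32 over all re-isolated arrays did not pass (adjusted p 0.257), and without that array it was 1.48 (adjusted p 0.47). Mmp9, the other gelatinase, lay between -2.54 and -0.85 on all 9 arrays and differed by -0.52 ± 0.57 (adjusted p 0.693).

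**Figure D2:**
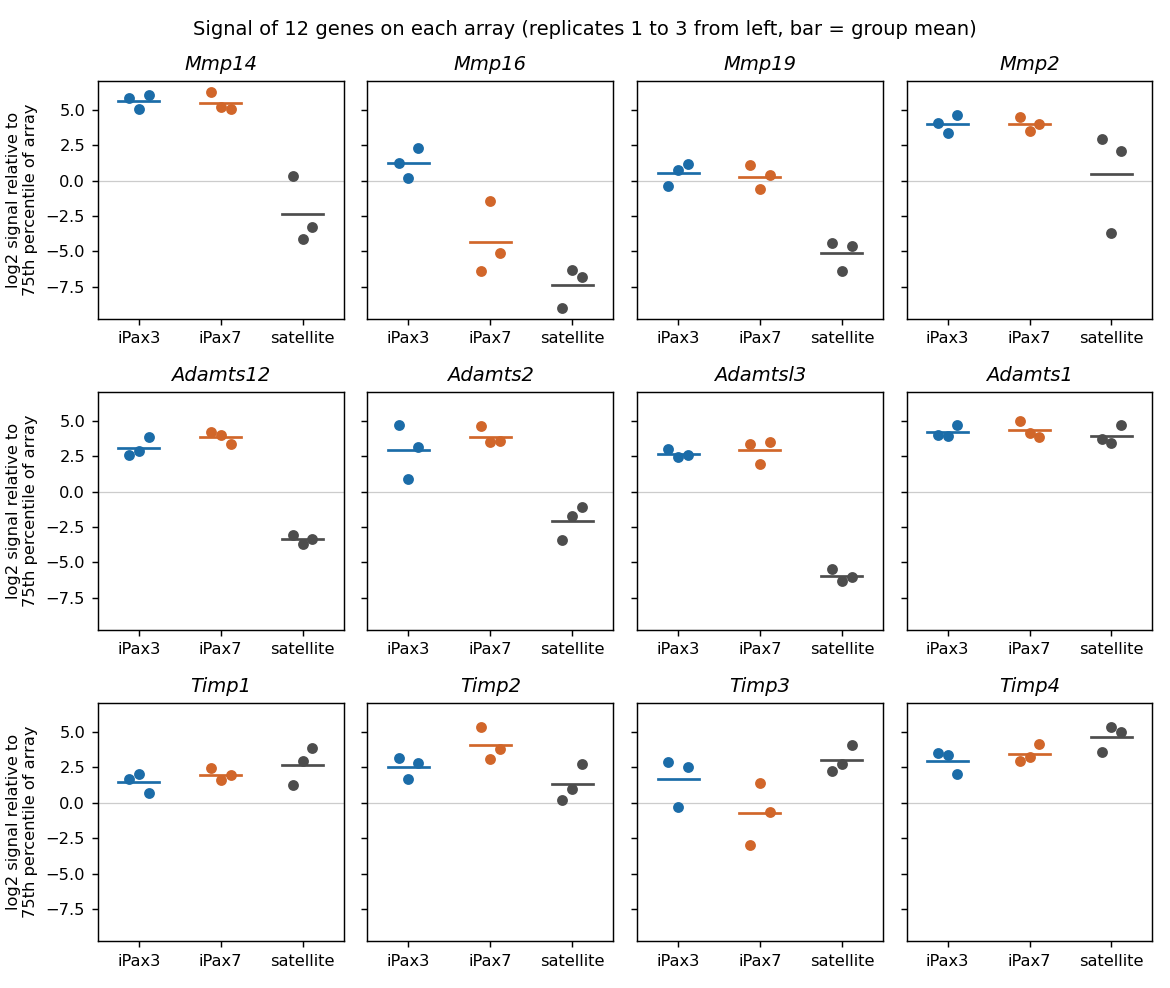
Levels of 12 genes on each array on the log2 scale described in the text; points are replicates 1 to 3 from left to right within a group and bars are group means. Mmp14, Mmp19, Adamts12, Adamts2 and Adamtsl3 have all re-isolated points above all satellite points, as does Mmp2, which did not pass the test. The plotted probe of Mmp16 is highest on the iPax3 arrays. Adamts1 and the TIMPs other than Timp2 have no group mean of re-isolated cells clearly above that of satellite cells.

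The collagenase and stromelysin genes did not share the pattern of Mmp14. In the RefSeq annotation (GRCm38.p6) 10 Mmp genes follow each other on chromosome 9 with no other protein-coding gene between them, and 8 of them were on the array. The 6 that could be measured were Mmp13, Mmp3, Mmp1a, Mmp10, Mmp8 and Mmp7. None passed the test in any comparison, their differences over all re-isolated arrays ran from -3.37 for Mmp10 to 1.90 for Mmp3, and the lowest adjusted p was 0.325. Mmp3, stromelysin-1, was at -3.12, -1.67 and -0.61 on the iPax3 arrays, at 3.84, -3.16 and -0.59 on the iPax7 arrays, and at -3.08, -1.47 and -3.82 on the satellite arrays. A single iPax7 array stood out and the groups overlapped. Mmp13, a collagenase, was at 0.77 on satellite replicate 3 and at -4.79 and -3.97 on the other satellite arrays.
Mmp10, stromelysin-2, was well above background on all 3 satellite arrays, on 1 iPax3 array and on no iPax7 array. It could therefore be measured only through the satellite group. Its level on satellite replicate 2 was 1.52, against -6.34 and -4.36 on the other satellite arrays, and no difference passed (adjusted p 0.443 for iPax7, at least 3.01-fold lower). Mmp8, neutrophil collagenase, differed by -2.26 ± 1.0 (adjusted p 0.325).

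The promoters of the Mmp genes on chromosome 9 and of the genes that rose are set beside each other because they carry different motif letters. RefSeq promoter sequences (GRCm38.p6, from 250 bases before to 50 after a gene's start) were matched for 45 of the 76 genes. Searched on both strands were TGAGTCA, the letters bound by AP-1, TATAAA, the TATA box, and GGGCGG, the GC box, and no match of one overlapped a match of another. Shown are the 120 bases before the start, plus strand, with AP-1 and TATA letters in capitals for the first 4 and GC box letters in capitals for the last 4.
Mmp3, chr9:7445702-7445821: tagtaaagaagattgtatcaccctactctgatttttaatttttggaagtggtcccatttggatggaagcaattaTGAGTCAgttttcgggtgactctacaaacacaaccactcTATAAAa
Mmp10, chr9:7502222-7502341: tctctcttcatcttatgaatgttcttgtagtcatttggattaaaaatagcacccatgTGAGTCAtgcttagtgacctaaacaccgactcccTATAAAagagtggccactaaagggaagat
Mmp13, chr9:7272394-7272513: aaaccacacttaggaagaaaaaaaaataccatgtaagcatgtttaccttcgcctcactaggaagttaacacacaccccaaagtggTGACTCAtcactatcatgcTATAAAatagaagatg
Mmp1a, chr9:7464021-7464140: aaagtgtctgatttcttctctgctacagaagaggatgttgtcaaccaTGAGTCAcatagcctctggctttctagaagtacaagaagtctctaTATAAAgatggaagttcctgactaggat
Mmp14, chr14:54431478-54431597: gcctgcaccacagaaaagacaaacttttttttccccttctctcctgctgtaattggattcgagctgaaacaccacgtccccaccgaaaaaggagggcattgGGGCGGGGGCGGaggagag
Adamts2, chr11:50601965-50602084: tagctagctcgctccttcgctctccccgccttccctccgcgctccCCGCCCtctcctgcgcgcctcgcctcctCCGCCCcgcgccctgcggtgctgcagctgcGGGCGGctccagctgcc
Adamts12, chr15:11064653-11064772: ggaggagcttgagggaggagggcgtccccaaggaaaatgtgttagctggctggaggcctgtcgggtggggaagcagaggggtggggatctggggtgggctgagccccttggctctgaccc
Adamtsl3, chr7:82335574-82335693: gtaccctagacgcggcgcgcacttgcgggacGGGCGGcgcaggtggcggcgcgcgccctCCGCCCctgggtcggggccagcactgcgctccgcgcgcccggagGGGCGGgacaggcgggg

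Counted per gene, with a match in any of its promoters, AP-1 letters stood in 9 of the 45 genes (20%), against 5.9% of all 27025 genes with a promoter (5.2% of all 32851 promoters): Mmp1a, Mmp3, Mmp7, Mmp10, Mmp12, Mmp13, Adam19, Adam1b and Adam29. TATA letters stood in 12 of 45 (26.7%), against 15.7% of all genes (13.6% of promoters), and GC box letters in 27 of 45 (60%), against 38.2% of all genes (35.7% of promoters). Of the 9 genes with AP-1 letters 8 were tested, all but Mmp12, and none of those 8 passed in any comparison. Of the genes with TATA letters 10 were tested and none passed, and of 27 tested genes with GC box letters 3 passed. Only 7.04% of the 71 measured genes passed over all re-isolated arrays, so these counts are too small to tie a motif to a rise. Of the genes that rose, 4 had a promoter in the table, and none of those 4 held AP-1 or TATA letters in this window, while Mmp14, Adamts2 and Adamtsl3 held the GC box. A match is a match of letters and does not show that a factor binds there.

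**Figure D3:**
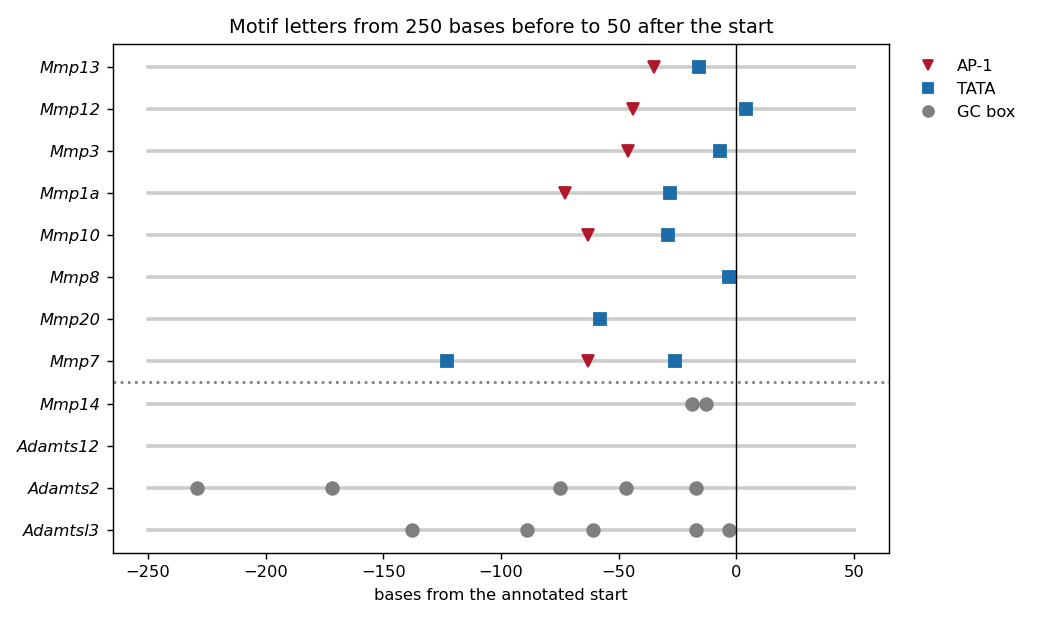
Positions of AP-1, TATA and GC box letters relative to the annotated start in the promoters of 8 Mmp genes of chromosome 9 (above the dotted line) and of 4 genes that rose in re-isolated cells (below it), with the start at 0 and the searched window as a grey bar. AP-1 letters lie 35 to 73 bases before the start in 6 of the 8 genes above the line and in none below it.

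The TIMPs did not rise with Mmp14. All 4 were well above background on every array and none passed in any comparison. Timp2, the inhibitor that also bridges MT1-MMP and the MMP2 precursor, was at 3.14, 1.65 and 2.83 in iPax3 cells, at 5.37, 3.09 and 3.81 in iPax7 cells and at 0.22, 0.96 and 2.75 in satellite cells. iPax7 and satellite arrays did not overlap, and the difference of 2.78 ± 0.93 did not pass (adjusted p 0.277).
Timp3, the TIMP that binds to the matrix and also inhibits ADAM17 and several ADAMTS enzymes, pointed the other way. Its levels were 2.86, -0.33 and 2.51 on the iPax3 arrays, -2.97, 1.43 and -0.66 on the iPax7 arrays and 2.25, 2.74 and 4.12 on the satellite arrays. All iPax7 arrays lay below all satellite arrays, with a difference of -3.77 ± 1.27 (adjusted p 0.281).
Timp1 and Timp4 differed by -0.96 ± 0.72 and -1.45 ± 0.69 over all re-isolated arrays (adjusted p 0.55 and 0.355).

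Adamts2 rose over all re-isolated arrays, and the other procollagen N-proteinases did not. Adamts2 removes the amino-terminal propeptide of procollagens I, II and III, a step in fibril assembly. Its levels were 4.73, 0.90 and 3.16 on the iPax3 arrays, 4.62, 3.48 and 3.58 on the iPax7 arrays, and -3.40, -1.73 and -1.07 on the satellite arrays. No re-isolated array overlapped the satellite arrays. The difference over all re-isolated arrays was 5.48 ± 0.92 (adjusted p 0.0312). The separate lines gave 4.99 ± 1.07 (adjusted p 0.0986) and 5.96 ± 1.07 (adjusted p 0.0543). The joint call was lost in 8 of 9 fits that left out an array. Using all 9 arrays, it was also lost with slide as a random block (adjusted p 0.215) and on the authors' deposited values. The probe is shown because 3 other probes of the gene, over 30.6 kb, also gave higher levels in re-isolated cells (6.71, 2.96 and 4.25), none passing alone (60 bases, mm8, plus strand).
Adamts2 probe, chr11:50620109-50620168: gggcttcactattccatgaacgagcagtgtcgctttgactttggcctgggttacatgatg
Adamts14, an enzyme of the same kind, was read by 2 probes that point opposite ways. The one that stands for the gene lay lower without overlap, at 1.0, 0.86 and -0.03 on the iPax3 arrays, 1.23, 0.58 and 1.24 on the iPax7 arrays and 1.36, 1.65 and 2.72 on the satellite arrays. Its difference of -1.10 ± 0.60 did not pass (adjusted p 0.412), nor did that of its other probe, 0.72 ± 0.79 (adjusted p 0.713 among all probes), or that of Adamts3 (-0.25 ± 0.66).

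Adamts12 rose in both lines. It encodes a secreted protease known to cut cartilage oligomeric matrix protein. Its levels were 2.56, 2.89 and 3.83 on the iPax3 arrays, 4.25, 3.98 and 3.38 on the iPax7 arrays, and -3.04, -3.73 and -3.37 on the satellite arrays, well above background on all 9 arrays. The arrays of a group lay close to each other and the re-isolated ones far above the satellite ones. The difference was 6.47 ± 0.67 in iPax3 cells (adjusted p 0.00567), 7.25 ± 0.67 in iPax7 cells (adjusted p 0.00332) and 6.86 ± 0.58 over both (adjusted p 0.00123), about 116-fold. It held in all 9 fits that left out an array, in each comparison. With slide as a random block adjusted p was 0.0564 for iPax3, 0.0145 for iPax7 and 0.0132 for both.
Its 2 probes lie 36.3 kb apart and are both shown because they differ in the size of the change (60 bases each, mm8, plus strand).
Adamts12 probe 1, chr15:11281042-11281101: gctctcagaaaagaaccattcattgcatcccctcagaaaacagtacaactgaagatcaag
Adamts12 probe 2, chr15:11244755-11244814: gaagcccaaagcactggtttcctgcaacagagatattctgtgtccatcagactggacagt
Probe 1 gave the values above. Probe 2 gave 0.69, 2.17 and 0.80 on the iPax3 arrays, -0.96, 1.68 and 3.49 on the iPax7 arrays and -3.47, -1.83 and -1.38 on the satellite arrays, again without overlap. Its difference over all re-isolated arrays was 3.54 ± 1.02 (adjusted p 0.18).

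None of the 7 ADAMTS proteoglycanases passed. Adamts1, Adamts4 and Adamts5 encode enzymes that cut versican and aggrecan. Adamts1 was between 3.47 and 5.02 on all 9 arrays, with a difference of 0.30 ± 0.60 (adjusted p 0.836). Adamts4 was at 2.90, 1.70 and 3.43 on the iPax3 arrays, 3.55, 2.46 and -0.76 on the iPax7 arrays and 1.85, -0.84 and -2.05 on the satellite arrays. These ranges overlap, and the difference was 2.56 ± 1.15 (adjusted p 0.329). Adamts5 was at 3.73, 3.10 and 2.98 in iPax7 cells, above its levels in satellite cells (2.24, 1.56 and 2.49) and in iPax3 cells (1.39, 1.87 and 2.77), with differences of 1.17 ± 0.68 from satellite and 1.26 ± 0.68 from iPax3 cells that did not pass (adjusted p 0.516 and 1). Adamts20 differed by -1.34 ± 0.74 over all re-isolated arrays (adjusted p 0.417). Adamts15 was well above background on 2 iPax3 arrays, no iPax7 array and 2 satellite arrays.
Of the other ADAMTS genes, Adamts7 and Adamts13 differed by -1.98 ± 0.81 and -1.47 ± 0.64 over all re-isolated arrays (adjusted p 0.3 and 0.317). The second probe of Adamts7 gave -0.32 ± 0.71. Adamts13 encodes the protease that cuts von Willebrand factor.

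Adamtsl3 had the lowest adjusted p of the set in every comparison with satellite cells, and its second probe did not repeat the change. It encodes a secreted matrix glycoprotein, also called punctin-2, with no protease domain. The levels were 3.03, 2.48 and 2.57 on the iPax3 arrays, 3.38, 1.97 and 3.54 on the iPax7 arrays and -5.50, -6.29 and -6.03 on the satellite arrays, of which 1 array was well above background. The difference over all re-isolated arrays was 8.77 ± 0.60 (adjusted p 0.000624) and stayed between 8.59 and 9.01 when an array was left out. With slide as a random block it was 8.71 (adjusted p 0.00507).
The 2 probes lie 147.8 kb apart and are shown because the finding turns on which is read (60 bases each, mm8, plus strand).
Adamtsl3 probe 1, chr7:82489684-82489743: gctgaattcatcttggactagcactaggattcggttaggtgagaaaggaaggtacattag
Adamtsl3 probe 2, chr7:82341873-82341932: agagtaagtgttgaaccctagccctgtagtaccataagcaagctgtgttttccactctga
Probe 2 gave 2.43, 1.34 and -3.37 on the iPax3 arrays, -1.74, 1.02 and 0.33 on the iPax7 arrays and -3.37, -0.91 and -0.91 on the satellite arrays, and was well above background on all 9 arrays. Its ranges overlap, and its difference was 1.73 ± 1.33 (adjusted p 0.584). All 3 reading frames of probe 2 hold a stop, while 1 frame of probe 1 is open. Which transcripts the probes read was not tested.
On the probes that stand for them, the other 4 ADAMTS-like genes did not pass. Their differences ran from -0.69 for Adamtsl5 to 2.04 for Adamtsl1 over all re-isolated arrays. Another probe of Adamtsl5 gave 4.58 ± 0.74 (adjusted p 0.03 among all probes), and its remaining probe gave -0.94 ± 1.06. The second probe of Adamtsl1 gave 0.18 ± 1.48. Adamtsl2 and Adamtsl4, both tied to fibrillin microfibrils, differed by -0.63 ± 0.87 and -0.35 ± 1.28.

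None of the 10 measured somatic ADAMs passed on the probe that stands for the gene. Another probe of Adam33 passed, at 6.69 ± 0.65 (adjusted p 0.00269 among all probes), while its remaining probe gave 0.09 ± 0.94. Adam10 and Adam17, the main sheddases of Notch receptors and of tumour necrosis factor, differed by 2.02 ± 1.25 and 0.86 ± 0.99 (adjusted p 0.465 and 0.705). Adam19 was at 1.65, 3.46 and 2.22 on the iPax3 arrays, 4.86, 2.10 and 1.37 on the iPax7 arrays and 1.11, -0.10 and 1.28 on the satellite arrays. The groups did not overlap, but the difference of 1.85 ± 0.88 did not pass (adjusted p 0.357). Its 2 other probes differed by 2.03 ± 1.25 and 2.97 ± 0.71 (adjusted p 0.488 and 0.111 among all probes). Adam9 and Adam15 differed by 0.41 ± 1.42 and 0.24 ± 0.65. The second probes of Adam17 and Adam15 gave larger differences, 3.07 ± 1.59 and 2.53 ± 1.15, that did not pass either (adjusted p 0.417 and 0.358 among all probes). Adam12, known from fusing and regenerating muscle, was well above background on 2 iPax3 arrays, 1 iPax7 array and no satellite array on any of its 2 probes, which was below the level needed for a test.
Of the 15 measured ADAMs known mainly from the reproductive tract, 8 were higher and 7 lower in re-isolated cells, with a median difference of 0.10, and none passed. Adam30 was higher without overlap (2.45 ± 0.74, adjusted p 0.182) and Adam3 lower without overlap (-1.37 ± 0.65, adjusted p 0.352). Adam5 differed by 2.73 ± 0.75 in iPax7 cells (adjusted p 0.193), and its second probe by 0.41 ± 0.91.

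For some genes the answer depended on the probe. Of 34 genes with several measured probes, 25 had all probes on the same side of 0 for re-isolated against satellite cells. Adam33, Adamtsl5 and Adam25 are singled out after their values were seen. On 2 probes Adam33 differed by -0.04 ± 0.83 and 0.09 ± 0.94. On the third it was at 3.19, 2.34 and 1.60 on the iPax3 arrays, 3.45, 3.30 and 2.42 on the iPax7 arrays and -4.02, -3.51 and -4.39 on the satellite arrays, well above background on all 9 arrays. That probe differed by 6.69 ± 0.65 (adjusted p 0.00269 among all probes).
A probe of Adamtsl5 likewise differed by 4.58 ± 0.74 (adjusted p 0.03) where its 2 other probes gave -0.69 and -0.94. The probes of Adam25 gave -2.61 and 2.72. Counted by any probe, with p adjusted over all probes, 6, 5 and 7 of the 71 genes rose in iPax3, in iPax7 and in all re-isolated cells, against 0.436%, 0.502% and 0.832% of all genes counted the same way.

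**Figure D4:**
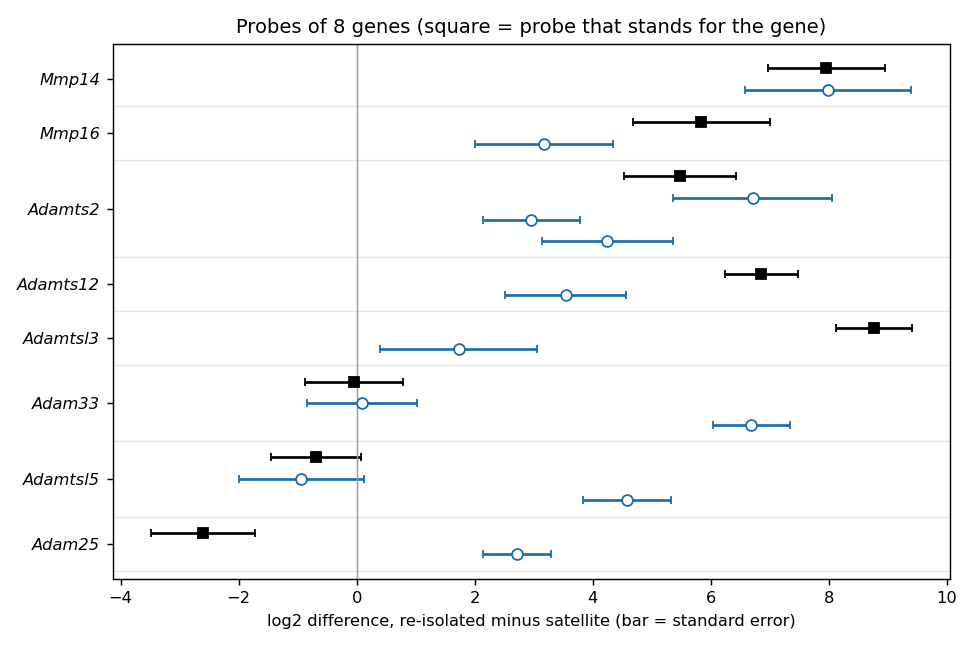
Log2 difference between all re-isolated and satellite arrays for each measured probe of 8 genes, with standard errors; squares are the probes that stand for the gene. The 2 probes of Mmp14 coincide near 8, the 4 of Adamts2 and 2 of Adamts12 all lie above 0, and those of Adamtsl3, Adam33, Adamtsl5 and Adam25 are far apart.

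The iPax7 and iPax3 cells were also compared with each other. None of the 71 genes passed for iPax7 against iPax3, nor did any of all 22705 genes (0%). Groups that did not overlap were seen for 7 genes (9.86%, against 9.35% of all genes). At an unadjusted p under 0.05, 2 of the 71 differed, Mmp16 and Adamts6, against 4.1% of all genes. On the probe that stands for the gene, Mmp16 differed by -5.55 ± 1.32 (unadjusted p 0.00219, adjusted p 0.809), and with slide as a fixed block among the 6 re-isolated arrays -7.61 (adjusted p 0.174). On slide 1, which held all iPax3 arrays and iPax7 replicate 1, that iPax7 array was at -6.38 and the iPax3 arrays between 0.15 and 2.28.
Adamts6, whose product acts on the matrix in heart and lung development, was at -0.37, -3.27 and -0.43 on the iPax3 arrays and at -6.20, -4.83 and -7.31 on the iPax7 arrays, where no array was well above background. On the satellite arrays it was at -8.82, -0.58 and -6.66, with 1 array well above background. Adamts6 could therefore be measured only through the iPax3 group, where it is high. It was at least 9.8-fold lower in iPax7 than in iPax3 cells (unadjusted p 0.0328, adjusted p 1). Differences between the lines were small beside their errors for Mmp14 (-0.14 ± 1.12), Mmp2 (0.00 ± 1.53), Adamtsl3 (0.28 ± 0.69) and Adamts12 (0.78 ± 0.67), which does not show that the lines are alike.

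The spread within a group was close to that of other genes. Their median standard deviation was 0.86 on the iPax3 arrays, 0.84 on the iPax7 arrays and 1.20 on the satellite arrays, against 0.88, 1.03 and 1.26 over all genes tested. Single arrays stood apart for some genes. On iPax7 replicate 1, 5 of the 71 genes lay at least 3 log2 units above both other iPax7 arrays (7.04%, against 4.28% of all genes): Mmp3, Mmp11, Mmp15, Adamts16 and Adamts19. On satellite replicate 2 there were also 5 (7.04%, against 4.18% of all genes), among them Mmp10. That array and iPax7 replicate 1 also had the smallest shares of probes well above background, 57.0% and 56.6%. The part of array quality in these values was not tested.

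Other genes of the same pathway that are not members gave some of the same picture. Of 34 listed regulators and neighbouring proteases 30 were measured. Over all re-isolated arrays 2 of the 30 rose and none fell, against 0.802% and 0.238% of all genes tested. The median difference of the 30 was 1.09, beside -0.16 over all genes tested. Reck, a membrane-anchored inhibitor of MT1-MMP, MMP2 and MMP9, was at 0.16, -2.27 and 2.06 on the iPax3 arrays, 0.37, -0.54 and -0.67 on the iPax7 arrays and -6.12, -5.30 and -6.25 on the satellite arrays, where 1 array was well above background. Its difference was 5.74 ± 0.91 (adjusted p 0.025). Pcsk5, a proprotein convertase of the furin family, rose by 5.72 ± 0.95 (adjusted p 0.0294), with 2 of 3 satellite arrays well above background. Furin itself differed by 1.98 ± 1.39 (adjusted p 0.523).
Pcolce2, an enhancer of procollagen C-proteinase, was at 3.30, -1.58 and 1.54 in iPax7 cells and well above background on no iPax3 or satellite array, so it could be measured only through the group where it is high. It was at least 76.9-fold higher in iPax7 than in satellite cells (adjusted p 0.0498) and at least 78.7-fold higher in iPax7 than in iPax3 cells, where it did not pass (adjusted p 0.492).

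Of 21 listed substrates and matrix partners, all measured, 8 rose and none fell over all re-isolated arrays, against 0.802% and 0.238% of all genes tested. The 8 were Dcn, Col1a1, Col1a2, Col2a1, Col3a1, Fbn1, Thbs1 and Vcan. Vcan encodes versican, the proteoglycan cut by several ADAMTS enzymes. It was at 2.67, 0.58 and 3.12 on the iPax3 arrays, 4.49, 1.73 and 1.92 on the iPax7 arrays and -7.95, -2.18 and -5.73 on the satellite arrays, 1 of which was well above background. Its difference was 7.7 ± 1.28 (adjusted p 0.0288). Col1a1, a chain of the type I collagen that ADAMTS2 trims and MT1-MMP cuts, rose by 6.30 ± 0.65 (adjusted p 0.00319). Dcn, the small proteoglycan decorin, rose by 8.71 ± 0.65 (adjusted p 0.000728). Aggrecan (Acan), von Willebrand factor (Vwf) and Comp, which are substrates of ADAMTS enzymes, did not pass, at -0.02 ± 0.61, -0.97 ± 0.60 and 1.15 ± 1.16.

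Markers of fibroblasts and fibro-adipogenic progenitors, which are cells of muscle connective tissue, moved with the genes that rose. All 14 were measured and 13 were higher in re-isolated cells. Against 0.802% of all genes tested, 10 of these 14 rose. Their summed level was between 8.95 and 9.95 on iPax3, between 9.48 and 10.33 on iPax7 and between 6.19 and 7.44 on satellite arrays, with no overlap. Between 12 and 14 of the 14 were well above background on each satellite array. Dcn, Col1a1, Col1a2 and Col3a1 belong both to this list and to the substrates above.
Of 11 satellite cell markers 10 were measured and all were lower in re-isolated cells. Against 0.238% of all genes tested, 3 of these 10 fell. Their summed level was between 7.33 and 7.93 on satellite arrays and between 4.87 and 5.97 on re-isolated arrays. Pax7, the defining factor of satellite cells, was at 2.89, 3.53 and -0.66 on satellite arrays and between -3.90 and -0.53 on re-isolated arrays. No marker of tenocytes, endothelial cells, leukocytes, mature muscle or germ cells rose or fell, and of 9 pericyte and smooth muscle markers 2 fell. The part of these cell types in the levels of Mmp14, Mmp19, Adamts2, Adamts12 and Adamtsl3 was not tested.

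**Figure D5:**
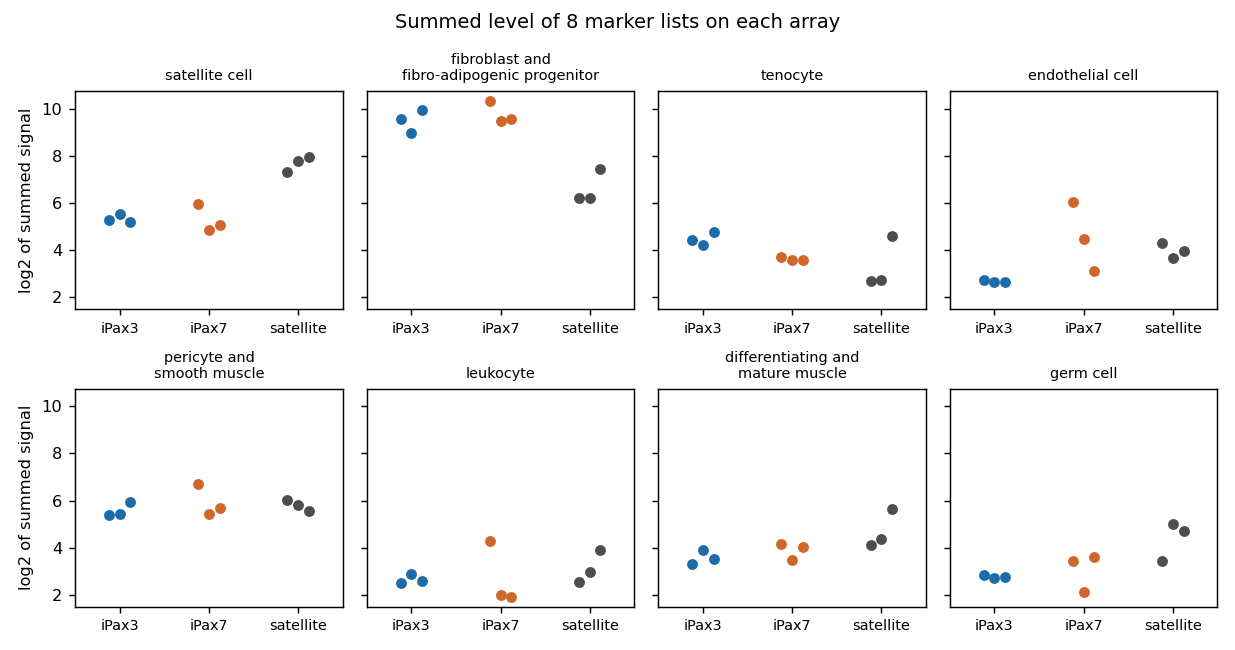
Log2 of the summed signal of 8 lists of cell type markers on each array, with replicates 1 to 3 from left to right within a group. The fibroblast list is higher and the satellite cell list lower on all re-isolated arrays than on any satellite array, while the other lists overlap between re-isolated and satellite arrays.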

How the data were processed

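Per the file headers, the deposited intensity values of the 9 scanner tables come from Agilent's Feature Extraction software, version 10.5.1.1, with detrending, background subtraction and the build mm8. The authors also deposited log2 values for 31918 spots, for which limma is the tool in the submitters' processing notes, without steps. The column medians of this table were 7.704, 7.709 and 7.68 (iPax3), 7.69, 7.701 and 7.669 (iPax7) and 7.676, 7.633 and 7.656 (satellite), and it correlated with the log2 mean signal at r from 0.9875 to 0.9993, so it is an uncentred log2 scale whose adjustment between arrays stays unknown. It served as an alternative.

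From the processed signal, log2 values were taken relative to each array's 75th percentile. Spots of a probe were averaged, control spots and outlier spots left out. Probes well above background (the software's own flag) on at least 3 arrays were kept, 32985 of 41174, and the probe with the highest mean stood for its gene. Tests used limma 3.58.1 in R 4.3.3, in 1 fit over all 9 arrays with 6 residual and 3.2 prior degrees of freedom, and a Benjamini-Hochberg adjusted p of 0.05 over 22705 genes. The number of arrays limits the precision. The fit was tested on simulated data with known changes. A bound ("at least") sets the brighter group's mean against the dimmer group raised to the lowest signal well above background on each array. The p-values set a difference of group means against the spread between these arrays within their groups. The 3 iPax3 arrays and iPax7 replicate 1 shared slide 1, the other iPax7 arrays slide 2, and each satellite array had its own slide. The correlation between arrays of a slide was 0.431.

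The members and gene lists were chosen with earlier results of these data known. Genes named are those that passed in any comparison, the 20 with the smallest p in each comparison with satellite cells, the 5 with the smallest p between the lines, all TIMPs and the best known MMPs, ADAMs and ADAMTS genes, and pathway genes that passed. Mmp11, Adam33, Adamts3 and Adamts16 and the Mmp genes of chromosome 9 were named after their values were seen. Same-numbered replicates did not deviate together (r from -0.13 to 0.06 over 9 pairs), so no pairing was used. Promoter sequences are RefSeq's (GRCm38.p6) and probe sequences those of the array. The array gives Adam6 a name that its accession now carries as Adam6a.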

Additional observations from a re-analysis of the deposited data

How the results depend on the processing

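No direction of a member that passed turned under any alternative, and no member passed for iPax7 against iPax3 under any. The counts that passed (5 in iPax3, 4 in iPax7 and 5 in all re-isolated cells) changed most with the slide and the filter. Probes well above background on all 9 arrays left 1, 2 and 2, slide as a random block 1, 2 and 3, and scan day as a random block 2, 2 and 3. In iPax3 cells 3 passed with normexp background correction. Fitting only the groups compared left 3 in iPax3 and 2 in iPax7 cells. The replicate block left 3, 3 and 4, although the numbers do not pair the arrays: 2 of 9 arrays correlated best with an array of their own number. Leaving out 1 array at a time gave 2 to 5, 2 to 5 and 3 to 5. Adamts12 and Adamtsl3 passed in each of these single-array fits. Read as a mean over its probes, Adamtsl3 still passed, but on the probe that is above background on all arrays it did not. Over all genes, slide as a random block left 14, 43 and 46 of 98, 121 and 236. The fixed block by slide between the lines and the count by any probe were added after the data were seen. Apart from the filter, which tests 50 of the 71 genes, and the fits with fewer arrays, the cause was not tested. Genes near background in satellite cells, among them Mmp16, Mmp19 and Adamtsl3, have differences that depend on how background was subtracted. That of Mmp19 over all re-isolated arrays was 5.54 in the main fit and 2.71 with normexp correction.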
